A study of Solenopsis invicta with 3 samples.

Results

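The odorant receptor entries described here are those of middling abundance in the worker antennae of the fire ant *Solenopsis invicta*. They are the entries with an SiOR identifier whose mean normalized count over the 3 libraries was at least 30 and under 100. A normalized count is the deposited expected count divided by a size factor of its library, taken from the 75th percentile over all entries. This rule took 197 of the 473 SiOR entries, out of 19703 entries in the expression tables. Another 65 SiOR entries had a mean of 100 or more and are called the abundant receptors, and 211 had a mean under 30, of which 108 reached the filter of a mean of 10 used for comparisons. The 197 entries were thus selected on their measured levels, which are given as a description.

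The study compared the antennal RNA of 3 worker classes that differ in social form and in the genotype of the social supergene, a stretch of chromosome whose versions *SB* and *Sb* do not recombine with each other. P_Bb denotes polygyne *SB/Sb* workers, P_BB polygyne *SB/SB* workers and M_BB monogyne *SB/SB* workers, where polygyne colonies hold several queens and monogyne colonies a single queen. There was 1 library per class, each a pool of 4 antennal cDNA samples amplified separately from polyA RNA. P_Bb and P_BB drew on the same 4 polygyne colonies and M_BB on 4 other, monogyne colonies, so social form and colony cannot be told apart. No class had a replicate library, and no test across replicates was made.

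Insect odorant receptors are ligand-gated ion channels in the membrane of olfactory sensory neurons, which sit in the sensilla of the antenna. A tuned receptor binds odorants and works together with a conserved co-receptor that is shared by most of these neurons. Ants carry a greatly expanded receptor family, with many closely similar copies, and use it to read pheromones and the cuticular hydrocarbons by which nestmates, castes and queens are told apart. The tables give the entries numbers and no ligand, so no role beyond membership of the family is assigned to any single entry below.

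The expected counts totalled 3351500 for P_Bb, 3421923 for P_BB and 3948464 for M_BB, and the size factors were 0.938, 0.958 and 1.11. Of the 473 SiOR entries, 444, 447 and 440 had a count above 0 in that order. No other tissue was compared, so these numbers cannot check the tissue label. All 197 entries had a count in all 3 libraries, which the lower limit of the rule made likely. Markers of other antennal cell types could not be checked, because the entries carry no gene names.

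Together the 197 receptors took up 0.320% of the P_Bb library (95% Clopper-Pearson interval 0.314 to 0.326), 0.327% of the P_BB library (0.321 to 0.333) and 0.279% of the M_BB library (0.274 to 0.284). Their summed normalized count was 11432 for P_Bb, 11667 for P_BB and 9888 for M_BB. It was thus nearly level between the polygyne libraries and lower in the monogyne library. The ratio of the sums was 0.980 for P_Bb over P_BB (95% counting interval 0.954 to 1.01), 1.18 for P_BB over M_BB (1.15 to 1.21) and 1.16 for P_Bb over M_BB (1.13 to 1.19). These intervals, like those of single receptors below, cover counting error only, since the cDNA was amplified without molecular identifiers. They compare libraries and not worker classes. In bulk antennae, fewer receptor neurons and less receptor RNA per neuron cannot be told apart. The 2037 official gene set entries (SINVm1_gene) in the same count window had a P_BB over M_BB ratio of sums of 0.966 (0.959 to 0.974), and the 299 assembled transcript models (XLOC) in it had 1.09 (1.07 to 1.11). The abundant receptors had 1.10 (1.07 to 1.13). Their sums include the largest SiOR entry, SiOR1_co, with 2248 for P_Bb, 3086 for P_BB and 3072 for M_BB. Among the abundant receptors, the deposited posterior standard deviation of a count, which reflects uncertain division of shared reads, reached 1243.5 counts. The sums of the abundant receptors and the shares of all SiOR counts may thus be uncertain beyond counting error. A ratio without SiOR1_co was not computed. As a share of all SiOR counts, SiOR1_co included, the 197 entries made up 41.84% for P_Bb, 41.17% for P_BB and 40.04% for M_BB.

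Levels of single receptors spread by several-fold within each library. The normalized count ran from 21.3 to 137 in P_Bb with a median of 56.3, from 21.9 to 126 in P_BB with a median of 55.1, and from 10.1 to 97.6 in M_BB with a median of 47.6. Before scaling these were expected counts of 20.0 to 128 for P_Bb, 21.0 to 121 for P_BB and 11.3 to 109 for M_BB, so that a single receptor rests on few reads. A library value of 100 or more was reached by 13 of the 197 receptors and a library value under 30 was found in 40. The most abundant was SiOR431, with 137 for P_Bb, 94.0 for P_BB and 67.3 for M_BB. SiOR75 had 82.1, 126 and 89.0 in that order, and SiOR390 had 107, 89.0 and 97.6. All 3 passed 100 in a library, with SiOR431 and SiOR390 highest in P_Bb and SiOR75 highest in P_BB.

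**Figure D1:**
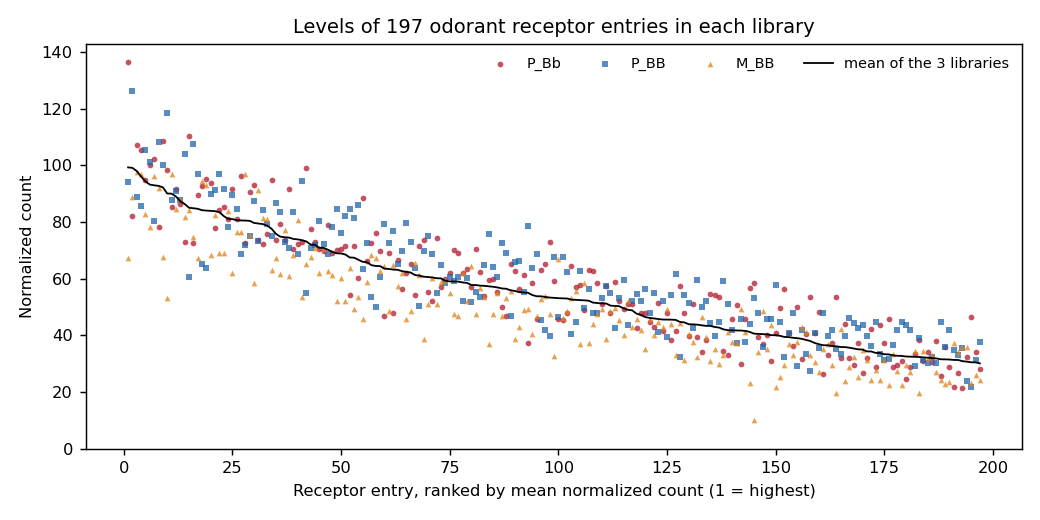
Normalized count (y axis) of each of the 197 receptor entries, ranked on the x axis by the mean over the 3 libraries; each symbol is 1 library and the line is the mean. The orange triangles (M_BB) lie mostly below the line, and the triangle at 10.1 is SiOR436.

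The limits of the window cut through a continuous range of levels. Just inside the lower limit were SiOR314 with a mean of 30.1, SiOR91 with 30.5 and SiOR415 with 30.5, and just outside it were SiOR44 with 29.4, SiOR299 with 29.4 and SiOR205 with 29.3. Just inside the upper limit were SiOR390 with 98.0, SiOR75 with 99.1 and SiOR431 with 99.3, and just outside it were SiOR186 with 101, SiOR458 with 102 and SiOR471 with 103. No gap separates members from non-members at either limit.

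The receptors were alike in coding length. Their lengths were all multiples of 3, as for models without untranslated regions, and ran from 687 to 1596 bases with a median of 1155 and quartiles of 1101 and 1185. Within 1000 to 1300 bases fell 176 of the 197 (89.3%), against 92.3% of the abundant receptors, 59.7% of the 211 weaker ones and 12.4% of the SINVm1_gene entries in the same count window. Length was not part of the rule, although a longer model collects more reads at the same number of transcripts. The longest were SiOR472 with 1596 bases, SiOR473 with 1425 and SiOR61 with 1350. The shortest were SiOR457 with 687, SiOR469 with 762 and SiOR209 with 777.

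Per length, in TPM (transcripts scaled to a fixed sum in each library), the mean over the libraries ran from 8.07 to 36.5 with a median of 14.9. The order by TPM was led by short models. SiOR108, with 864 bases, had 36.3 TPM for P_Bb, 41.0 for P_BB and 32.4 for M_BB. SiOR457, the shortest model, had 31.8, 27.3 and 32.6 TPM, although its mean normalized count of 58.7 was near the middle of the window. SiOR390 followed with 29.0, 24.6 and 27.1 TPM. At the other end, mean TPM was 8.07 for SiOR91, 8.14 for SiOR314 and 8.17 for SiOR415, and the longest model, SiOR472, had 9.49, 10.1 and 9.41 TPM. Across the 197 receptors, which are not independent replicates, mean TPM and mean normalized count had a Pearson correlation of 0.928, and mean TPM and coding length one of -0.157. By summed TPM the receptors stood at 3168 for P_Bb, 3312 for P_BB and 2823 for M_BB, in the same order of libraries as for the normalized counts.

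**Figure D2:**
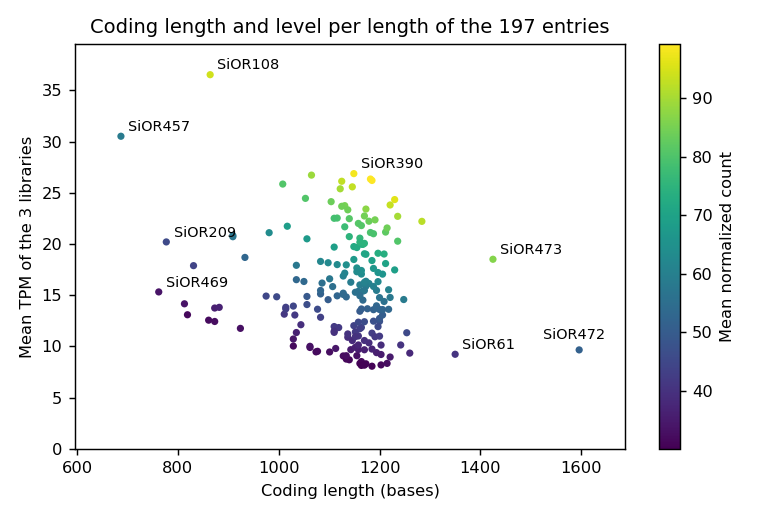
Coding length in bases (x axis) against mean TPM over the 3 libraries (y axis) for the 197 receptor entries, coloured by mean normalized count. Most points lie between 1000 and 1300 bases, and the highest TPM values belong to SiOR108 (864 bases) and SiOR457 (687 bases).

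Reads that fit several entries, as those of closely similar receptor copies can, are divided between the entries by probability in the counting program. Whether SINVm1_gene or XLOC entries model the same genes as some receptor entries, and so share their reads, was not tested. The deposited posterior standard deviation of a count measures how uncertain that division was. It stayed under 1 count in all 3 libraries for 105 of the 197 receptors (53.3%), against 92.3% of the SINVm1_gene entries in the same window and 86.0% of the 9260 entries compared. It reached 5 counts or more in some library for 19 receptors. The largest value relative to the count was 75.9%, for SiOR436, followed by 30.2% for SiOR415 and 28.1% for SiOR155. The median over the receptors of this largest relative value was only 1.51%, and 24 receptors reached 10% or more. Read division was thus uncertain for a minority of the receptors and near certain for most.

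Across receptors, libraries ranked the entries similarly. The Spearman correlation was 0.731 for the polygyne pair, 0.745 for the *SB/SB* pair and 0.780 for the pair of P_Bb with M_BB. The log2 levels had a Pearson correlation of 0.703 for the polygyne pair, 0.705 for the *SB/SB* pair and 0.714 for the pair of P_Bb with M_BB (n = 197 entries in each, which come from the same libraries and the same narrow window of levels). The highest library value divided by the lowest had a median of 1.42 and was under 1.5 for 120 receptors. The steadiest was SiOR194, with 86.4 for P_Bb, 87.7 for P_BB and 88.1 for M_BB, a highest to lowest ratio of 1.02. SiOR16, SiOR179, SiOR423 and SiOR279 followed, with highest to lowest ratios of 1.03 to 1.06. For comparison, the 95% counting interval of a ratio between libraries for a single receptor had a median width of 1.17 on the log2 scale, so most differences between single values lay within counting error.

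Between P_Bb and P_BB, which differ in supergene genotype within the same colonies, the receptors differed little on balance. The median log2 ratio of P_Bb over P_BB, computed on normalized count + 1, was -0.05 (95% order-statistic interval over entries -0.11 to 0.01), against 0.03 over all 9260 entries compared and 0.02 over the SINVm1_gene entries of the window. This interval and those of the medians below run over entries of the same libraries, which are not replicates. They do not measure the uncertainty of a difference between worker classes. P_Bb was the higher library for 87 receptors (44.2%), against 53.9% of all entries compared and 51.6% of the SINVm1_gene entries of the window. The receptors thus lay slightly towards P_BB. So did the XLOC entries of the window (44.1%, median log2 ratio -0.05) and the weaker receptors that reached the filter (38.9%, median -0.08). The abundant receptors lay the other way (60.0%, median 0.06). At least 2-fold apart on this scale were 2 receptors: 1 higher in P_Bb (background 1.64% of all entries compared) and 1 lower (background 1.37%). Those shares of the receptors were 0.508% each.

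SiOR415 was the receptor higher in P_Bb, with 46.4 for P_Bb, 21.9 for P_BB and 23.3 for M_BB, a P_Bb over P_BB ratio of 2.12 (95% counting interval 1.21 to 3.71). The *SB/Sb* library was high and the *SB/SB* libraries were close to each other, but the posterior standard deviations of its counts were 5.29, 6.34 and 7.11 on expected counts of 43.5, 21.0 and 25.9. SiOR177 was the receptor lower in P_Bb, with 37.3 for P_Bb, 78.7 for P_BB and 49.3 for M_BB, a ratio of 0.474 (0.310 to 0.721). Here P_BB was high and M_BB lay between the polygyne libraries.

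The counting interval of the P_Bb over P_BB ratio excluded 1 for 15 receptors higher in P_Bb (7.61%, background 10.1%) and 14 lower (7.11%, background 7.42%). In the SINVm1_gene entries of the same window, where counts are of the same size, these shares were 6.33% and 6.09%. Both receptor shares are thus under the background of all entries and slightly above that of the window. Among receptors with a posterior standard deviation under 1 count in all libraries, SiOR141 had the largest ratio of these, with 72.8 for P_Bb, 39.7 for P_BB and 47.6 for M_BB, a ratio of 1.84 (1.21 to 2.80). SiOR75 was lower in P_Bb by a ratio of 0.650 (0.482 to 0.873). The deposited credibility bounds of the TPM, whose level the file headers do not give, did not overlap between these libraries for 5 receptors, 2 higher in P_Bb (SiOR141 and SiOR247) and 3 lower (SiOR75, SiOR177 and SiOR301), against 7.12% of all entries compared in both directions together.

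For the *SB/SB* libraries P_BB and M_BB, which come from colonies of different social form, the receptors were on balance lower in the monogyne library. The median log2 ratio of P_BB over M_BB was 0.27 (0.17 to 0.34), with quartiles of -0.04 and 0.54, against 0.01 over all entries compared and -0.03 over the SINVm1_gene entries of the window. P_BB was the higher library for 139 receptors (70.6%), against 51.0% of all entries compared. The median was 0.19 for the abundant receptors, 0.42 for the weaker receptors that reached the filter and 0.16 for the XLOC entries of the window. So the shift was also found in other receptors and, in smaller size, in assembled transcripts outside the official gene set. Whether some of those XLOC entries are themselves models of receptor genes was not tested, so they may not be a comparison outside the receptors.

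**Figure D3:**
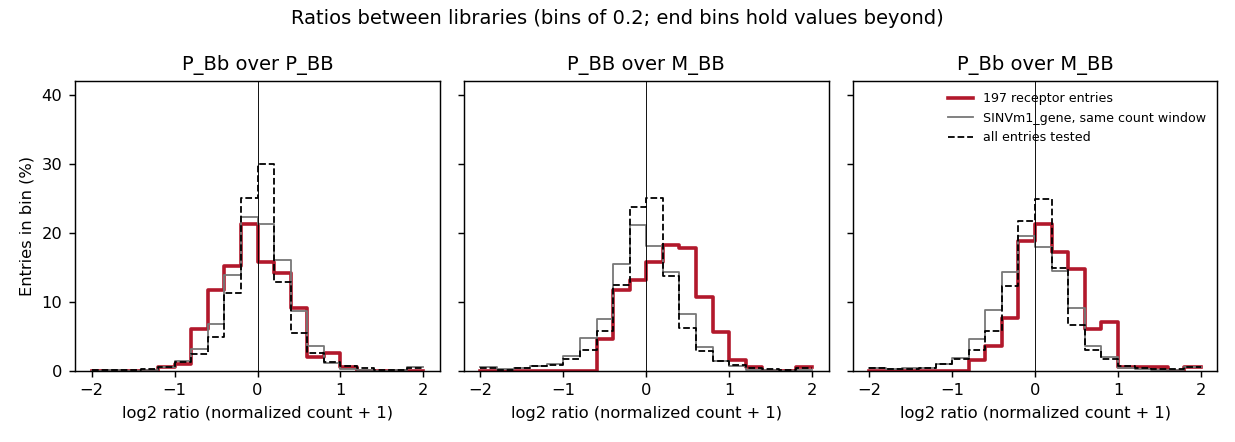
Share of entries (y axis, %) in bins of the log2 ratio (x axis, width 0.2, normalized count + 1) for the 3 library pairs: the 197 receptors (red), the SINVm1_gene entries of the same count window (grey) and all 9260 entries compared (dashed). The red outline is centred near 0 for P_Bb over P_BB (median -0.05) and lies to the right for P_BB over M_BB (median 0.27) and P_Bb over M_BB (median 0.18).

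At least 2-fold higher in P_BB than in M_BB were 5 receptors, SiOR436, SiOR427, SiOR178, SiOR146 and SiOR4 (2.54%, background 1.81%), and 0 were at least 2-fold lower (background 2.33%). In the SINVm1_gene entries of the window these shares were 0.982% and 2.75%. The largest decrease in P_BB was that of SiOR244, with 32.5 for P_Bb, 23.8 for P_BB and 36.0 for M_BB, a ratio of 0.660 whose interval of 0.382 to 1.14 includes 1. More receptors differed by a smaller amount. The counting interval excluded 1 for 44 receptors higher in P_BB (22.3%, background 11.8%) and for 2 lower (1.02%, background 13%), SiOR258 and SiOR370. For the window SINVm1_gene entries these shares were 6.87% and 10.6%. The credibility bounds of the TPM did not overlap for 11 receptors higher in P_BB (5.58%, background 5.16%) and for 0 lower (background 8.10%). For the window SINVm1_gene entries these shares were 2.70% and 6.09%.

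SiOR436 had by far the lowest monogyne value, with 58.7 for P_Bb, 53.1 for P_BB and 10.1 for M_BB. Its P_BB over M_BB ratio was 5.23 (2.77 to 11.5) and the P_Bb over M_BB ratio was 5.78 (3.07 to 12.6). It was also the receptor whose reads were divided with the least certainty, with posterior standard deviations of 9.81, 10.7 and 8.57 on expected counts of 55.0, 50.9 and 11.3. Its deposited TPM bounds, 3.67 to 15.7 in P_BB and 0.21 to 7.72 in M_BB, overlap. The ratio therefore stands outside counting error but not outside the uncertainty of read division.

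SiOR427 had 40.9 for P_Bb, 57.7 for P_BB and 21.7 for M_BB, a P_BB over M_BB ratio of 2.66 (1.62 to 4.50). SiOR178 had 98.4, 119 and 53.2, a ratio of 2.23 (1.62 to 3.13). In both receptors the polygyne libraries were the higher ones, and their TPM bounds did not overlap between P_BB and M_BB. SiOR146 had 59.3, 67.8 and 32.6, a ratio of 2.08 (1.37 to 3.24). SiOR4 had 59.4, 75.6 and 36.9, a ratio of 2.05 (1.37 to 3.07). SiOR146 and SiOR4 fell outside the rule for naming receptors and were picked after their values were seen, as were SiOR46, SiOR412, SiOR419 and the receptors named for their counting intervals, TPM bounds or numbering alone.

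For all 5 of these receptors the posterior standard deviation reached 1 count in some library, 10.7 for SiOR436 and 1.16 for SiOR4 being the extremes. Among the 105 receptors under 1 count, 0 were 2-fold apart between P_BB and M_BB, but the interval excluded 1 for 26, all higher in P_BB (24.8%), and the median log2 ratio was 0.29. Among the 92 others the interval excluded 1 for 18 higher and 2 lower, and the median was 0.23. M_BB was the lowest library in 57.1% of the former and 48.9% of the latter. The difference between these sets of receptors was not tested. Of the 105, SiOR412 had the largest ratio, with 30.9 for P_Bb, 44.9 for P_BB and 22.5 for M_BB, a ratio of 2.00 (1.19 to 3.41) that is just under 2-fold once 1 is added to each value. SiOR46 had 73.6, 69.9 and 38.6, a ratio of 1.81 (1.22 to 2.72), with a posterior standard deviation of 0 in all libraries.

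**Figure D4:**
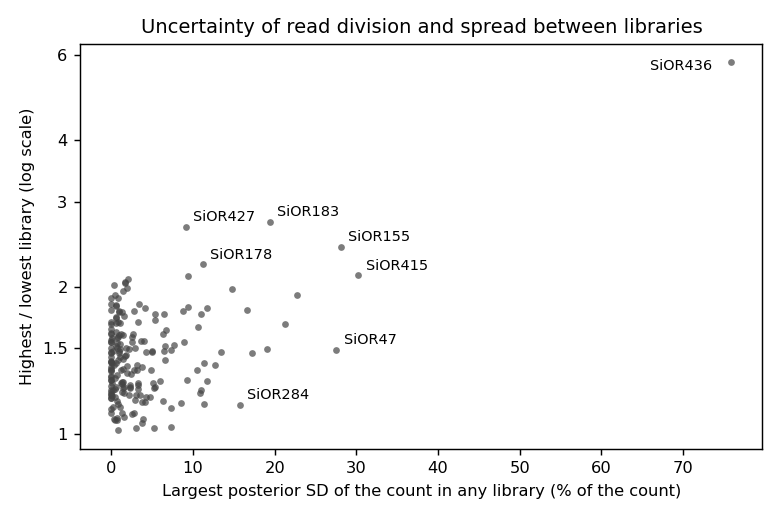
Largest relative posterior standard deviation (x axis) against the highest library value divided by the lowest (y axis, log scale) for the 197 receptors. The x value is the posterior standard deviation as % of the count in the same library, taken where that % was largest. SiOR436 lies alone at 75.9%, and most receptors lie at the left, where read division was near certain.

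Against P_Bb, which M_BB does not match in genotype, social form or colony, the receptors were again lower in the monogyne library. This comparison shares its libraries with the previous ones and is not independent of them. The median log2 ratio of P_Bb over M_BB was 0.18 (0.12 to 0.24), against 0.03 over all entries compared and -0.02 over the SINVm1_gene entries of the window. It was 0.23 for the abundant receptors, 0.19 for the weaker receptors that reached the filter and 0.10 for the XLOC entries of the window. P_Bb was the higher library for 135 receptors (68.5%), against 53.3% of all entries compared and 78.5% of the abundant receptors. At least 2-fold higher in P_Bb were 4 receptors, SiOR436, SiOR183, SiOR155 and SiOR431 (2.03%, background 2.13%), and 0 were at least 2-fold lower (background 2.26%). The counting interval excluded 1 for 37 receptors higher in P_Bb (18.8%, background 14.6%) and for 1 lower, SiOR392 (0.508%, background 12.3%). The TPM bounds did not overlap for 8 receptors higher in P_Bb (4.06%, background 5.86%) and for 0 lower (background 8.83%). For the window SINVm1_gene entries these shares were 2.95% and 6.14%. The interval excluded 1 for 8.05% of the window SINVm1_gene entries as higher and 10.6% as lower. The receptor share that was higher is thus above that of all entries and further above that of the window, and the share that was lower is under both.

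SiOR183 had 53.7 for P_Bb, 35.1 for P_BB and 19.7 for M_BB, a P_Bb over M_BB ratio of 2.73 (1.60 to 4.68). SiOR155 had 56.6, 43.9 and 23.3, a ratio of 2.42 (1.49 to 4.03). In both, P_BB lay between the other libraries. The relative posterior standard deviation was as high as 19.4% for SiOR183 and 28.1% for SiOR155. For SiOR155 the TPM bounds of P_Bb (10.8 to 24.1) and M_BB (3.38 to 13.1) overlap. Those of SiOR183 (8.71 to 17.3 and 2.46 to 8.35) do not. SiOR431 had a P_Bb over M_BB ratio of 2.03 (1.51 to 2.73) with P_BB again between. On normalized count + 1 its log2 ratio was 1.01, and with other scalings or TPM it was 0.944 to 0.998, just under 2-fold. Its posterior standard deviation was at most 0.32 counts, and it was the only one of the 10 receptors 2-fold apart in any library pair with a value under 1 count. SiOR419, with 45.9, 31.6 and 22.5, had a ratio of 2.04 (1.22 to 3.49), just under 2-fold once 1 is added to each value. The largest decrease in P_Bb was that of SiOR377, with 21.9 for P_Bb, 34.9 for P_BB and 37.2 for M_BB, a ratio of 0.589 whose interval of 0.341 to 1.05 includes 1.

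**Figure D5:**
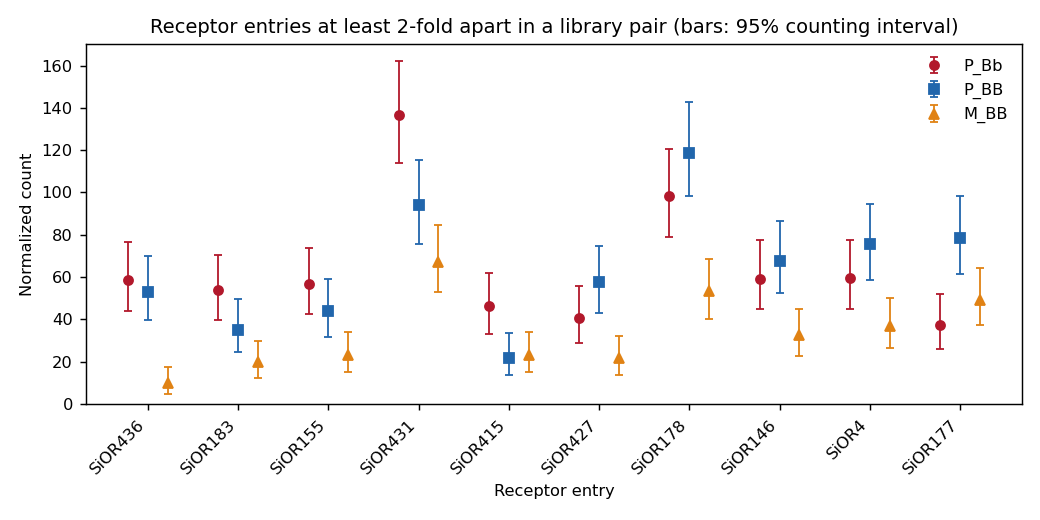
Normalized count (y axis) in each library for the 10 receptors at least 2-fold apart in a library pair, with 95% Poisson counting intervals as bars. M_BB (triangles) is the lowest library for 8 of them, and SiOR415 and SiOR177 are the exceptions.

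By order of the libraries, M_BB was the lowest for 105 of the 197 receptors (53.3%, background 38.1%), P_Bb for 48 and P_BB for 44. M_BB was the highest for 28 (14.2%), P_Bb for 73 and P_BB for 96. The abundant receptors had M_BB lowest in 69.2% and the weaker receptors that reached the filter in 52.8%. Of the window entries, the XLOC ones had it lowest in 47.2% and the SINVm1_gene ones in 32.0%. The most frequent full order had P_BB highest and M_BB lowest, in 62 receptors, and the next had P_Bb highest and M_BB lowest, in 43. Only SiOR436 had a library that was 2-fold or more away from each of the others, with the others less than 2-fold apart, and that library was M_BB (0.508% of the receptors, background 1.52%). No receptor had P_Bb (0, background 0.961%) or P_BB (0, background 0.799%) apart in this way.

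Both ends of the window had P_BB above M_BB on balance. The 99 receptors with the lower means had a median log2 ratio of P_BB over M_BB of 0.30, and the 98 with the higher means had 0.22, a difference that was not tested. M_BB was the lowest library in 53 of the former and 52 of the latter. By length, the 176 receptors of 1000 to 1300 bases had a median of 0.24 and the 18 shorter ones 0.31. For P_Bb over M_BB these medians were 0.20 and -0.01, and for P_Bb over P_BB they were -0.02 and -0.34, so the few shorter receptors were on balance highest in P_BB and level between the other libraries.

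The SiOR numbers of the receptors ran together in places. In runs of consecutive numbers lay 132 of the 197, the longest being the 7 receptors from SiOR372 to SiOR378 and the 6 from SiOR175 to SiOR180, and 65 had no neighbour in number among the 197. Whether neighbouring numbers lie side by side in the genome was not tested. Values differed within the runs. Within the first run, SiOR376 had 64.5 for P_Bb, 40.4 for P_BB and 53.1 for M_BB, while SiOR378 had 72.5, 108 and 74.6. The second run held the steady SiOR179, with 60.1, 58.4 and 59.4, beside SiOR177 and SiOR178 described above. Over the 86 pairs of receptors with consecutive numbers, the log2 ratios of the neighbours had Pearson correlations of -0.01 for P_Bb over P_BB, 0.08 for P_BB over M_BB and 0.07 for P_Bb over M_BB.

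The study gave the name SiOR463 to a receptor that it examined as an assembled transcript model (XLOC). Whether the SiOR463 entry of these tables is that gene, or shares reads with another model of it, was not tested, so the values below hold for the entry alone. The entry had 41.6 for P_Bb, 52.1 for P_BB and 43.1 for M_BB, and 13.3, 17.0 and 14.2 TPM over a coding length of 996 bases. Its ratio was 0.798 (0.511 to 1.24) for P_Bb over P_BB, 1.21 (0.798 to 1.84) for P_BB over M_BB and 0.964 (0.615 to 1.50) for P_Bb over M_BB. All 3 intervals include 1.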

How the data were processed

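Antennal polyA RNA of 3 worker classes was sequenced as read pairs, 1 library per class. The authors mapped the reads onto a transcript reference and estimated abundance with RSEM, and the file names give a setting that ignores strand. The version used for these libraries is not given in the sources used here. Expected counts and posterior mean counts, both estimates with decimals, were deposited without scaling between libraries. TPM values, deposited beside them, scale the estimates by effective length to a fixed sum. Posterior standard deviations of the counts and credibility bounds of the TPM, deposited as well, served as a signal of uncertain read division. Lengths are those deposited by the authors. A file of the authors' own comparison (patterns and their probabilities) and a file of transcript models were not used. No identifier of the 197 receptors matched the RefSeq gene table (0 matched), and no sequence is shown.

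Expected counts were divided by 75th percentile size factors scaled to a geometric mean of 1. Log2 ratios used normalized count + 1, a scale that understates the change of low entries. Entries with a mean of at least 10 normalized counts (9260) were compared, and a difference was counted at 2-fold or more. Ratios without pseudocount carry 95% Clopper-Pearson intervals from rounded counts, and median intervals are order-statistic intervals over entries. The 197 receptors, the lists and the rule for naming receptors were chosen with earlier results of these data known. The rule named SiOR463 (by its identifier), any receptor with 1 library apart, and the 5 steadiest. It also named the extremes of level, TPM, length and relative posterior standard deviation (3 each). Per library pair and direction it named up to 3 of the largest ratios among receptors at least 2-fold apart. Where none was 2-fold apart, it named the single largest. Alternatives were size factors by TMM (edgeR 4.0.16), by median of ratios (DESeq2 1.42.0) or by library totals, TPM, posterior mean counts, other pseudocounts, windows and thresholds, receptors with a posterior standard deviation under 1, and thinning to equal totals. Python 3.11.15, numpy 2.4.6, pandas 2.3.3, scipy 1.17.1 and R 4.3.3 were used. The scripts were tested on simulated data.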

Additional observations from a re-analysis of the deposited data

How the results depend on the processing

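With 1 library per class, no library could be left out, and depth limits what a single receptor can show. No paired analysis was possible because the colonies that P_Bb and P_BB share were pooled into a single library for each class. The median log2 ratios kept their sign under every alternative run for them. The ratios of the named receptors stayed inside their counting intervals, and the sign changed only for SiOR16, SiOR179 and SiOR279, 3 of the steadiest, at values within 0.03 of 0 (log2). The median of P_BB over M_BB ran from 0.23 (thinning) to 0.29 (posterior standard deviation under 1). The scalings moved the median over all entries by less than 0.1 on the log2 scale. Counts at the 2-fold threshold are small and moved more, and the cause was not tested except where fewer or more receptors entered. On deposited TPM, 0 receptors were higher in P_Bb than P_BB and 3 higher in P_BB than M_BB; on posterior mean counts, 0 were higher in P_Bb than P_BB. A pseudocount of 5 gave 0 higher and 0 lower in P_Bb than P_BB, and 3 higher in P_BB than M_BB. A window of 40 to 80 (121 receptors) gave 0 higher in P_Bb than P_BB and 2 higher in P_Bb than M_BB, with M_BB lowest in 67. A window of 20 to 150 (282 receptors) gave 4 lower in P_Bb than P_BB, 10 higher in P_BB than M_BB, 11 higher and 2 lower in P_Bb than M_BB, and 6 with 1 library apart. The 105 receptors with a posterior standard deviation under 1 gave 0 higher and 0 lower in P_Bb than P_BB, 0 higher in P_BB than M_BB, 1 higher in P_Bb than M_BB, M_BB lowest in 60 and 0 with a library apart. Thinning gave 7 higher in P_Bb than M_BB and 2 with a library apart. With TMM, median of ratios, library totals, TPM or a pseudocount of 5, 3 were higher in P_Bb than M_BB. SiOR431 then fell just under 2-fold. A threshold of 1.5-fold gave 12 higher and 15 lower in P_Bb than P_BB, 38 higher in P_BB than M_BB, 32 higher and 3 lower in P_Bb than M_BB, and 26 with a library apart, while 3-fold gave 0 and 0 for P_Bb against P_BB and 1 higher in each comparison with M_BB. A 99% interval excluded 1 for 9 receptors in the polygyne pair, 17 for P_BB against M_BB and 15 for P_Bb against M_BB, in place of 29, 46 and 38 at 95%. Added after seeing the data, TPM bounds that do not overlap gave 5, 11 and 8, and leaving out SiOR436 left 0 receptors with a library apart.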
